A study of Homo sapiens with 12 samples.

Results

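The RAB small GTPase genes are described here on 12 exon arrays of cytoplasmic RNA from U2OS cells, a human osteosarcoma line. Members were chosen by symbol alone: RAB followed by a number and at most 1 letter from A to D, without pseudogenes and without genes named for interacting with RAB proteins. Of 19488 genes with probe sets of their own, 61 met this rule, with 785 of the 357604 probe sets that carry a single symbol. A probe set, the group of probes that reads 1 stretch of a transcript, entered only with an average log2 signal above 2.04, the median over all probe sets, and 628 of the RAB probe sets did so. Genes with at least 3 kept probe sets were tested, 56 RAB genes among 16883 genes in all. RAB3C, RAB27B, RAB39, RAB40A and RAB41 kept 2 probe sets each and were not tested. RAB29 appears on the array under its older symbol RAB7L1.

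RAB proteins are molecular switches that cycle between a GTP-bound form on membranes and a GDP-bound form that is drawn back into the cytosol. Each marks particular organelles and recruits the effectors that bud, move, tether and fuse transport vesicles, so that the family maps the secretory and endocytic routes of a cell. Exchange factors load GTP, GTPase-activating proteins end the active state, a geranylgeranyl transferase adds the lipid anchor with the help of an escort protein, and GDP dissociation inhibitors carry the inactive protein. Many RABs are made in nearly every cell, while others serve regulated secretion, pigment cells, epithelia or neurons.

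The study asks which cytoplasmic RNAs lose and regain their cap, the modified nucleotide that protects the 5' end of a message. In the induced groups, cells received 1 ug/ml of doxycycline for 24 h to express K294A, an inactive form of the capping enzyme, and in the uninduced groups the same cells received none. After removal of ribosomal RNA, part of the samples was exposed to purified Xrn1, an enzyme that digests RNA from an unprotected 5' end carrying a monophosphate. The groups, each with 3 arrays, are therefore induced Xrn1, induced untreated, uninduced Xrn1 and uninduced untreated. All 4 groups are cells stably carrying K294A, so no group lacks the construct. Sample titles call the replicates biological, but the labels do not say whether the line is a clone or whether replicates were separate cultures. P values thus rest on the spread between these samples, which may be technical.

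A gene value is the mean log2 signal of the gene's kept probe sets on an array. A change is a difference of mean gene values on the log2 scale, and it passed the test where limma's Benjamini-Hochberg adjusted p over all 16883 genes was below 0.05. The standard error is 0.342 for a change between 2 groups, 0.242 for the average of both Xrn1 changes and 0.483 for their difference. Each is the same for every gene, because limma estimated a single spread for all of them (SD 0.418). Limma p values use this shared spread and not that of a gene's own arrays. The median SD of a RAB gene within a group ran from 0.18 for induced Xrn1 to 0.52 for induced untreated arrays. Signals are relative to the other RNAs on the same array, so less RNA of a gene cannot be told apart from more RNA of others. The median Xrn1 change of all tested genes was 0.10 in induced cells and -0.27 in uninduced cells. After cyclic loess normalisation, which takes out differences between arrays that follow signal, these medians were 0.01 and 0.07.

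Arrays of a group correlated across genes at 0.942 to 0.959 for induced Xrn1, 0.835 to 0.888 for induced untreated, 0.711 to 0.918 for uninduced Xrn1 and 0.837 to 0.967 for uninduced untreated. RNGTT, the gene of the endogenous capping enzyme, averaged 4.00 ± 0.67 in induced untreated and 3.79 ± 0.89 in uninduced untreated cells (SD, n = 3 each), and this difference did not pass (limma adjusted p = 0.685). Whether its probe sets read the K294A transcript is not stated. Mesenchymal markers were bright, with VIM at 6.72, SPARC at 7.56 and ITGB1 at 6.85 over the 12 arrays, though RUNX2 and COL1A2 were at 3.46 and 3.54. The leukocyte gene PTPRC was at 2.46 and the red cell gene HBB at 2.44.

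The tested RAB genes spanned gene values from 5.33 for RAB1B down to 2.35 for RAB19, with a median of 3.67 over the 12 arrays. Signals of different genes depend on their probes as well as on RNA amount, so this order is one of signal. Genes above the 95th percentile of 44 olfactory receptor genes, which an osteosarcoma line should not use, are called expressed, and the others dim. Only olfactory receptor genes with at least 3 kept probe sets enter this level, so dimmer ones are left out and it may be high. That level was 3.22. By it 37 RAB genes (66.1%) were expressed and 19 were dim, against 58% expressed among all tested genes. RAB18 lay just inside at 3.24 and RAB3D just outside at 3.18. Leaving out the brightest probe set of each gene moved RAB32, RAB6B, RAB2B and RAB18 to the dim side. RAB42, RAB40B, RAB40C, RAB35 and RAB27A each carried 1 probe set far above their others, at 12.2, 12.1, 11.2, 11.7 and 10.9, and the gene value of RAB42 was 4.23 with it and 3.24 without it.

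Among expressed members were the general regulators of the main membrane routes. RAB1A, RAB1B, RAB2A and RAB6A act at the endoplasmic reticulum and Golgi, RAB5A, RAB5B and RAB5C at early endosomes, RAB7A at late endosomes and lysosomes, and RAB8A, RAB10, RAB11A and RAB14 in recycling and delivery to the plasma membrane. Dim members included RAB25 and RAB17, known from epithelia, RAB3A, known from neurons, RAB38, known from pigment cells, and RAB39B, at 2.39, 2.59, 3.12, 3.00 and 2.74. RAB9A, a late endosome RAB found in most cells, was dim as well at 2.90, as were RAB21 at 3.15 and RAB23 at 3.16.

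**Figure D1:**
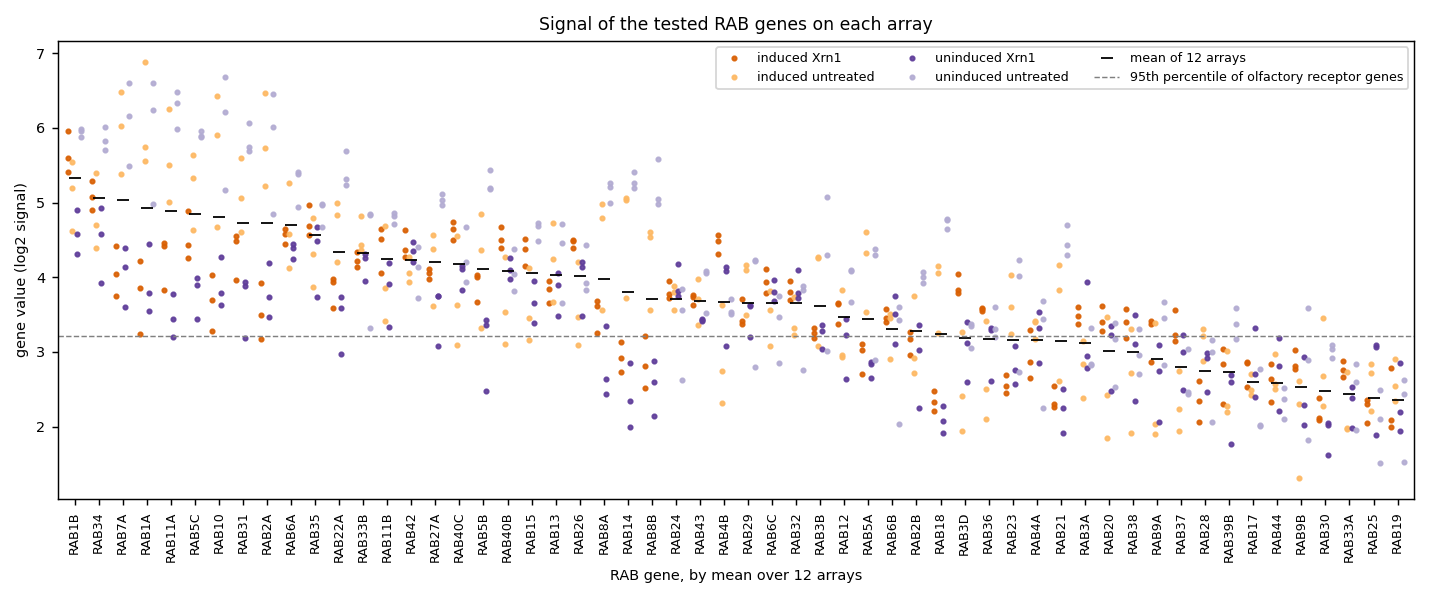
Log2 gene value of the 56 tested RAB genes on each of the 12 arrays, ordered by the mean over all arrays (black dash); colours mark the 4 groups with 3 arrays each, and the dashed line at 3.22 separates expressed from dim genes. The genes on the left spread over several log2 units, with untreated arrays at the top for RAB7A, RAB1A and RAB11A.

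The 4 brightest members differed in how they met Xrn1. RAB1B had gene values of 5.60, 5.40 and 5.95 on the induced Xrn1 arrays, against 4.62, 5.19 and 5.54 on the induced untreated arrays. In uninduced cells it had 4.58, 4.31 and 4.89 with Xrn1, against 5.99, 5.96 and 5.88 without. Its groups overlapped in induced cells and were apart in uninduced cells. RAB34, which acts in lysosome positioning and ciliogenesis, had 5.07, 4.90 and 5.29 on the induced Xrn1 arrays, against 4.39, 4.70 and 5.40 on the induced untreated ones, and these overlapped. In uninduced cells RAB34 had 4.58, 3.93 and 4.93 with Xrn1, against 5.70, 6.02 and 5.82 without, which did not overlap. RAB7A and RAB1A, described with the genes lower in both states, were low on all 6 Xrn1 arrays.

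Xrn1 treatment of RNA from uninduced cells lowered 27 of the 56 RAB genes, and no RAB gene passed as higher. Of all tested genes, 39.0% passed, 31.8% as lower and 7.24% as higher. The median change was -0.63 over the RAB genes and -0.27 over all genes. After cyclic loess, 18 RAB genes were lower and 7 higher, with 21.9% of all genes lower and 21.9% higher. After centring each array on its median gene 21 were lower and 7 higher, with 25.4% of all genes lower and 23.3% higher. The absence of rises thus depends on the scaling. The group values did not overlap for 26 RAB genes, all lower with Xrn1, against 44.8% of all genes in either direction. Shares of all genes by direction were not counted for this measure.

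The falls lay mostly among expressed members. Of the 37 expressed RAB genes 23 were lower (62.2%), and of the 19 dim ones 4 were lower (21.1%), namely RAB21, RAB23, RAB30 and RAB39B. Among all genes split at the same level, 43.3% of expressed and 15.8% of dim ones were lower. By bins of signal, 3 of 3 RAB genes above 5 were lower beside 73.2% of all genes, between 4 and 5 it was 12 of 19 beside 51.5%, between 3 and 4 it was 10 of 23 beside 31%, and below 3 it was 2 of 11 beside 12.9%. Dim genes start nearer the lowest signals and have less room to fall, and whether this takes part was not tested. No test of RAB genes against other genes was made.

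RAB14, which acts between the Golgi and endosomes, fell furthest in uninduced cells. It had 2.85, 1.997 and 2.34 with Xrn1, against 5.41, 5.19 and 5.27 without, a change of -2.89 (limma adjusted p = 1.67e-15). RAB11A, the recycling endosome RAB, had 3.45, 3.21 and 3.78 with Xrn1, against 6.33, 6.48 and 5.98 without, a change of -2.79 (limma adjusted p = 1.94e-14). For both genes every Xrn1 array lay far below every untreated array.

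RAB8B, which acts in exocytosis, had 2.88, 2.14 and 2.59 with Xrn1, against 5.58, 4.98 and 5.04 without, a change of -2.66 (limma adjusted p = 2.82e-13). RAB18, found on the endoplasmic reticulum and on lipid droplets, had 2.08, 1.91 and 2.28 with Xrn1, against 4.78, 4.77 and 4.64 without, a change of -2.64 (limma adjusted p = 4.16e-13). Neither gene overlapped between groups. With Xrn1, RAB18 on all 3 arrays, and RAB14 and RAB8B on replicate 2, lay near or below the array medians of 2.09 to 2.25. Whether so low a signal limits the size of these falls was not tested. Further falls past 2 were those of RAB8A (-2.35), RAB21 (-2.25), RAB5B (-2.18), RAB31 (-2.16), RAB5C (-2.13), RAB10 (-2.13), RAB7A (-2.04) and RAB1A (-2.01).

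By route, Xrn1 lowered 6 of 10 tested early endosome RABs in uninduced cells, with a median change of -1.52, 7 of 11 of recycling and exocytosis (-0.99), 8 of 15 of the endoplasmic reticulum and Golgi (-0.89) and 2 of 5 of late endosomes and lysosomes (-0.68). Of the 8 RABs of regulated secretion and lysosome-related organelles, RAB3B and RAB27A were lower, and the median of these genes was -0.06. The other 7, a mixed group of ciliary and less studied members, had a median of 0.04 with RAB23 and RAB39B lower. RAB4A, RAB4B, RAB24 and RAB20, which were counted here in the early endosome list and did not pass, changed by 0.11, 0.19, 0.57 and -0.02. Over all genes 31.8% were lower, with a median of -0.27. After cyclic loess the medians were -0.85 for early endosomes, -0.27 for recycling and exocytosis, -0.09 for the endoplasmic reticulum and Golgi, where 5 genes were lower and 3 higher, -0.48 for late endosomes and lysosomes and 0.22 for regulated secretion.

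In induced cells Xrn1 lowered 13 RAB genes and raised 9. Of all genes, 39.3% passed, 17.8% as lower and 21.6% as higher. The median change was -0.04 over the RAB genes and 0.10 over all genes. Expressed members made up 11 of the falls and 4 of the rises, and dim members 2 of the falls and 5 of the rises. As shares, 29.7% of expressed RAB genes were lower and 10.8% higher, beside 25% and 22.6% of all expressed genes, and 10.5% of dim RAB genes were lower and 26.3% higher, beside 7.85% and 20.2% of all dim genes. Group values were apart for 25 RAB genes, 15 lower and 10 higher, against 50.9% of all genes in either direction. Without induced untreated replicate 2, 8 RAB genes were lower and 2 higher, with 10.8% of all genes lower and 3.34% higher. Without induced Xrn1 replicate 2, 13 RAB genes passed beside 23.7% of all genes, and without induced Xrn1 replicate 3, 14 did beside 24.8%.

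RAB1A, which directs transport from the endoplasmic reticulum to the Golgi, fell furthest in induced cells. It had 4.22, 3.24 and 3.86 with Xrn1, against 5.56, 6.89 and 5.74 without, a change of -2.29 (limma adjusted p = 2.18e-09). RAB2A, of the same route, had 3.92, 3.17 and 3.50 with Xrn1, against 5.23, 6.47 and 5.73 without, a change of -2.28 (limma adjusted p = 2.7e-09). The groups were apart for both, and induced untreated replicate 2 was the highest array for each.

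RAB10, known for moving glucose transporter vesicles to the cell surface, had 4.03, 3.28 and 3.69 with Xrn1, against 4.67, 6.42 and 5.90 without, a change of -1.996 (limma adjusted p = 2.49e-07). RAB7A, the late endosome RAB, had 4.42, 3.75 and 4.04 with Xrn1, against 5.39, 6.48 and 6.03 without, a change of -1.89 (limma adjusted p = 1.09e-06). Groups did not overlap for either gene.

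The largest rises in induced cells were smaller than the largest falls. RAB4B, of fast recycling from early endosomes, had 4.57, 4.48 and 4.32 with Xrn1, against 2.75, 2.31 and 3.63 without, a change of 1.56 (limma adjusted p = 8.55e-05). RAB3D, of regulated exocytosis, had 3.83, 3.79 and 4.04 with Xrn1, against 2.41, 1.94 and 3.27 without, a change of 1.35 (limma adjusted p = 0.00079). For both genes induced untreated replicate 2 was the lowest array and replicate 3 the highest of its group.

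RAB37, found on secretory granules, had 3.15, 3.56 and 3.23 with Xrn1, against 2.24, 1.94 and 2.75 without, a change of 1.00 (limma adjusted p = 0.0129). RAB36 had 3.57, 3.59 and 3.55 with Xrn1, against 2.51, 2.10 and 3.41 without, a change of 0.90 (limma adjusted p = 0.0265). The remaining rises were those of RAB40B (0.88), RAB40C (0.87), which carry a SOCS box for ubiquitin ligases, RAB26 (0.87), a secretory granule RAB, RAB20 (0.86) and RAB9B (0.80). The groups of RAB40C and RAB20 overlapped, as did those of RAB8A among the falls. The regulated secretion members, with 3 of 8 higher and a median of 0.72, had no fall that passed. Of the recycling and exocytosis members 5 of 11 were lower and 0 higher. Lower and higher were 3 and 2 of 10 early endosome members and 3 and 1 of 15 of the endoplasmic reticulum and Golgi. For late endosomes and lysosomes it was 1 and 1 of 5, and for the mixed ciliary group 1 and 2 of 7. Over all genes 17.8% were lower and 21.6% higher. After cyclic loess 1 regulated secretion member was lower and 3 higher, and 5 recycling and exocytosis members were lower and 1 higher. Over all genes it was then 21.9% and 23.4%.

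Lower in both induction states were 13 genes: RAB1A, RAB2A, RAB5A, RAB7A, RAB8A, RAB8B, RAB10, RAB11A, RAB14, RAB18, RAB21, RAB22A and RAB23. These are all the RAB genes lower in induced cells. In the other 14 genes lower in uninduced cells the induced change did not pass, and 20 genes passed in neither state. Of all tested genes, 14.4% were lower in both states, 17.0% were lower in uninduced cells with an induced change that did not pass, and 36.9% passed in neither, against 23.2%, 25% and 35.7% of the RAB genes. Over both states averaged, 21 were lower and 3 higher (RAB4B, RAB37 and RAB3D), with 44.0% of all genes passing, 29.8% as lower and 14.2% as higher. After cyclic loess the averages gave 20 lower and 13 higher, with 26.7% of all genes lower and 27.5% higher.

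The 13 genes split by how alike the states were. RAB1A fell by 2.29 in induced and by 2.01 in uninduced cells, and RAB2A, RAB7A, RAB10, RAB5A and RAB23 likewise had changes that differed between the states by at most 0.31, within the 95% interval of ± 0.947 for such a difference. RAB8A, RAB8B and RAB11A fell less in induced cells, with differences of 1.42, 1.28 and 1.43 that passed. RAB14, RAB18, RAB21 and RAB22A had differences of 1.21, 1.16, 1.09 and 1.13 that did not (limma adjusted p from 0.0528 to 0.0752). These too exceed the unadjusted interval of ± 0.947, so only the threshold sets them apart from RAB8A, RAB8B and RAB11A.

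The untreated arrays differed among these genes as well. RAB1A had 6.60, 4.98 and 6.24 on the uninduced untreated arrays, RAB2A had 6.45, 4.84 and 6.01, and RAB10 had 6.68, 5.17 and 6.21, each lowest on replicate 2. RAB11A, RAB14 and RAB8B stayed above 4.9 on all 3 of those arrays. On the induced untreated arrays, replicate 1 was the lowest of all 6 untreated arrays for 9 of the 13 genes, RAB7A, RAB8A, RAB8B, RAB10, RAB11A, RAB14, RAB18, RAB21 and RAB22A. It was so for 12 of the 14 genes lower in uninduced cells alone as well, and for 37.5% of all RAB genes and 27.1% of all tested genes. No RAB gene was above a gene value of 6 on any of the 6 Xrn1 arrays, and 0, 5 and 1 were on the induced untreated arrays, with 5, 3 and 4 on the uninduced untreated arrays.

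**Figure D2:**
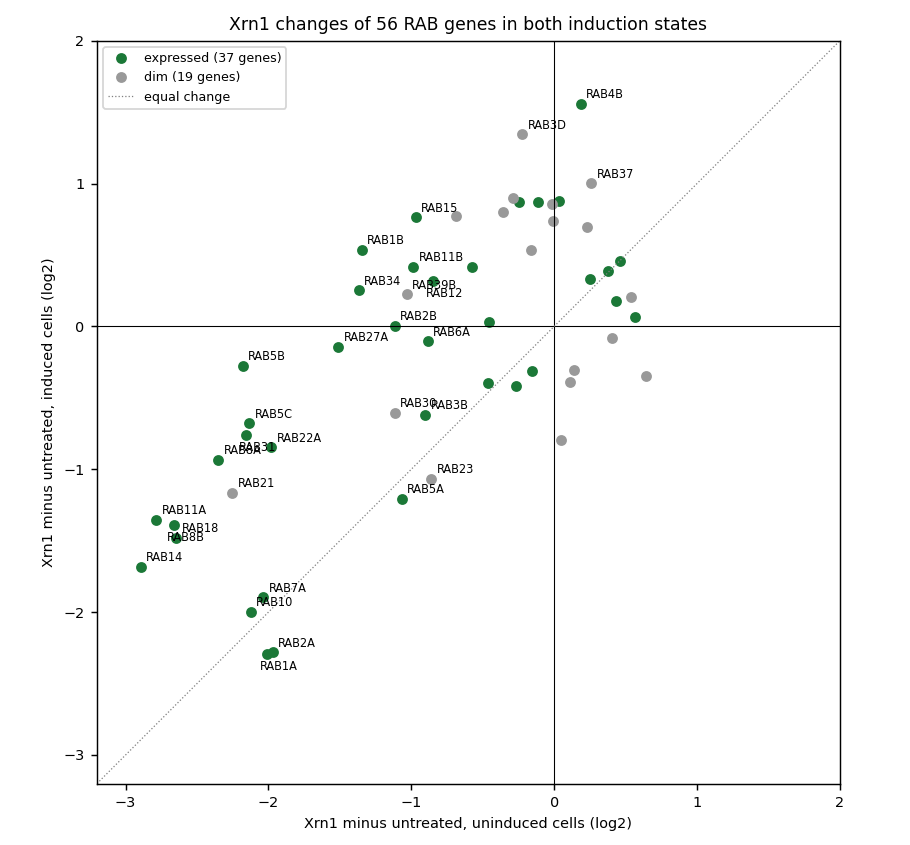
Xrn1 minus untreated change of 56 RAB genes in uninduced cells (x axis, log2) and in induced cells (y axis, log2); green points are expressed genes, grey points dim ones, and named points passed in at least 1 state, except for 6 crowded genes just below 1 on the y axis that are left unnamed. RAB1A, RAB2A, RAB7A and RAB10 lie near the dotted line of equal change, and RAB5B, RAB5C and RAB31 lie above it with a fall that passed in uninduced cells alone.

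Induction by itself moved no RAB gene past the test. Without Xrn1, induced minus uninduced, 0 of 56 passed with limma (smallest adjusted p = 0.11), beside 0.0415% of all genes (0.0118% higher and 0.0296% lower). At an unadjusted p below 0.05 there were 23. With each gene's own spread 0 passed, and with array weights 23 were lower, beside 26.8% of all genes. The signs leaned low, with 42 genes negative and a median of -0.44, against -0.35 over all genes. Values did not overlap for 16 RAB genes, all lower in induced cells, against 23.2% of all genes in either direction. Without induced untreated replicate 3, 25 RAB genes were lower, beside 37.9% of all genes. The largest changes without Xrn1 were those of RAB5B (-1.09), RAB15 (-1.05) and RAB34 (-1.02).

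With Xrn1, induced minus uninduced, 0 of 56 passed with limma (smallest adjusted p = 0.409), beside 0.0592% of all genes (0.0533% higher and 0.00592% lower). At an unadjusted p below 0.05 there were 8. A fit with a separate spread per gene gave 0, a fit of the compared groups alone gave 5 higher, beside 5.87% of all genes, and array weights gave 15 higher and 2 lower, beside 31.4% and 6.55%. Here 44 genes were positive, and the median was 0.30 against 0.28 over all genes. Values did not overlap for 17 RAB genes, all higher in induced cells, against 34.4% of all genes in either direction. RAB1B (1.06), RAB3D (0.85) and RAB5B (0.81) had the largest changes.

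The Xrn1 change itself differed between the states for 15 RAB genes, all higher in induced than in uninduced cells, beside 21.8% of all genes, 20.6% higher and 1.23% lower. Of these, 12 were expressed and 3 dim. RAB5B, an early endosome RAB, led with a difference of 1.91 (limma adjusted p = 0.0101). RAB5B had 4.01, 3.67 and 4.03 on the induced Xrn1 arrays, against 3.32, 4.36 and 4.85 on the induced untreated arrays. In uninduced cells it had 3.35, 2.48 and 3.43 with Xrn1, against 5.19, 5.44 and 5.18 without. Its groups overlapped in induced cells and stood far apart in uninduced cells.

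RAB1B followed with 1.88 (limma adjusted p = 0.0107) and RAB34 with 1.62 (limma adjusted p = 0.02), with the values given above. RAB15, which acts in receptor recycling, had 4.51, 4.16 and 4.38 on the induced Xrn1 arrays, against 3.16, 3.46 and 4.12 on the induced untreated arrays. In uninduced cells RAB15 had 3.95, 3.38 and 3.65 with Xrn1, against 4.73, 4.69 and 4.48 without. Its groups were apart in both states, in opposite directions, and the difference was 1.74 (limma adjusted p = 0.0157).

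RAB3D, with a difference of 1.57 (limma adjusted p = 0.0226), had 3.12, 2.60 and 3.40 with Xrn1 in uninduced cells, against 3.06, 3.38 and 3.35 without, which overlapped. RAB5C, with a difference of 1.46 (limma adjusted p = 0.029), had 4.43, 4.26 and 4.88 on the induced Xrn1 arrays, against 4.64, 5.33 and 5.63 on the induced untreated arrays. In uninduced cells RAB5C had 3.89, 3.44 and 3.99 with Xrn1, against 5.96, 5.88 and 5.89 without. The differences between states rest on the scaling and on single arrays. After cyclic loess 0 passed, beside 2.51% of all genes, and after centring 3 were higher and 2 lower, beside 3.08% and 7.91%. Without induced untreated replicate 1, induced Xrn1 replicate 1, induced Xrn1 replicate 3 or uninduced Xrn1 replicate 2, 0 passed, beside 0.592%, 0.746%, 0.296% and 0.379% of all genes. Without induced untreated replicate 3, 30 passed, beside 49.8%.

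Close relatives within the family changed unequally. For 11 pairs the difference of both gene values was taken on each array and its Xrn1 change, averaged over both states, was set against all 400 exchanges of labels within states in a two-sided exact permutation test, adjusted over the pairs. RAB1A minus RAB1B averaged -1.88 ± 0.43 with Xrn1 against 0.94 ± 0.75 without in induced cells, and -0.67 ± 0.70 with Xrn1 against 0.00 ± 0.86 without in uninduced cells (SD, n = 3 each). RAB1A thus fell by 1.75 more than RAB1B (exact permutation p = 0.01, adjusted p = 0.033). The change of their difference was -2.83 in induced and -0.66 in uninduced cells. RAB2A likewise fell more than RAB2B by 1.57 (exact permutation p = 0.01, adjusted p = 0.033).

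RAB11A minus RAB11B averaged -0.17 ± 0.10 with Xrn1 against 1.60 ± 0.79 without in induced cells, and -0.33 ± 0.35 with Xrn1 against 1.47 ± 0.32 without in uninduced cells (SD, n = 3 each). The change of this difference, -1.79, was alike in both states, at -1.77 in induced and -1.80 in uninduced cells (exact permutation p = 0.005, the smallest the design allows, adjusted p = 0.033). The change of RAB6A minus RAB6B was -0.80, of RAB3B minus RAB3D -1.32 and of RAB8A minus RAB8B 0.38 (exact permutation p = 0.015, 0.025 and 0.015, adjusted p = 0.033, 0.0458 and 0.033). The difference of RAB8A and RAB8B turned to -0.75 with the median of probe sets, and that of RAB6A and RAB6B rests on the 8 kept probe sets that RAB6A does not share with its retrotransposed relative RAB6C.

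RAB4A minus RAB4B changed by -1.01 (exact permutation p = 0.075, adjusted p = 0.118) and RAB9A minus RAB9B by -0.18 (exact permutation p = 0.52, adjusted p = 0.621). The 3 pairs of RAB5A, RAB5B and RAB5C had average changes of 0.09 to 0.27 with adjusted p between 0.344 and 0.86 in the exact permutation test. Averages hide opposite values there, since the change of RAB5A minus RAB5B was -0.93 in induced and 1.11 in uninduced cells. The calls of these pairs lie close to the limit of the design, since the smallest p of 0.005 can become as much as 0.055 after adjustment over 11 pairs. Over the main setting and 16 alternatives, RAB11A minus RAB11B changed by -1.98 to -1.47 with exact permutation p from 0.005 to 0.01, and its adjusted p passed in 8 alternatives. RAB1A minus RAB1B changed by -1.99 to -1.29 and passed in 7, RAB2A minus RAB2B by -1.82 to -0.94 and passed in 5, and RAB3B minus RAB3D by -1.63 to -1.03 and passed in 2. RAB6A minus RAB6B ranged from -1.95 to -0.20 and passed in 6, and RAB8A minus RAB8B from -0.75 to 0.50 and passed in 2.

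**Figure D3:**
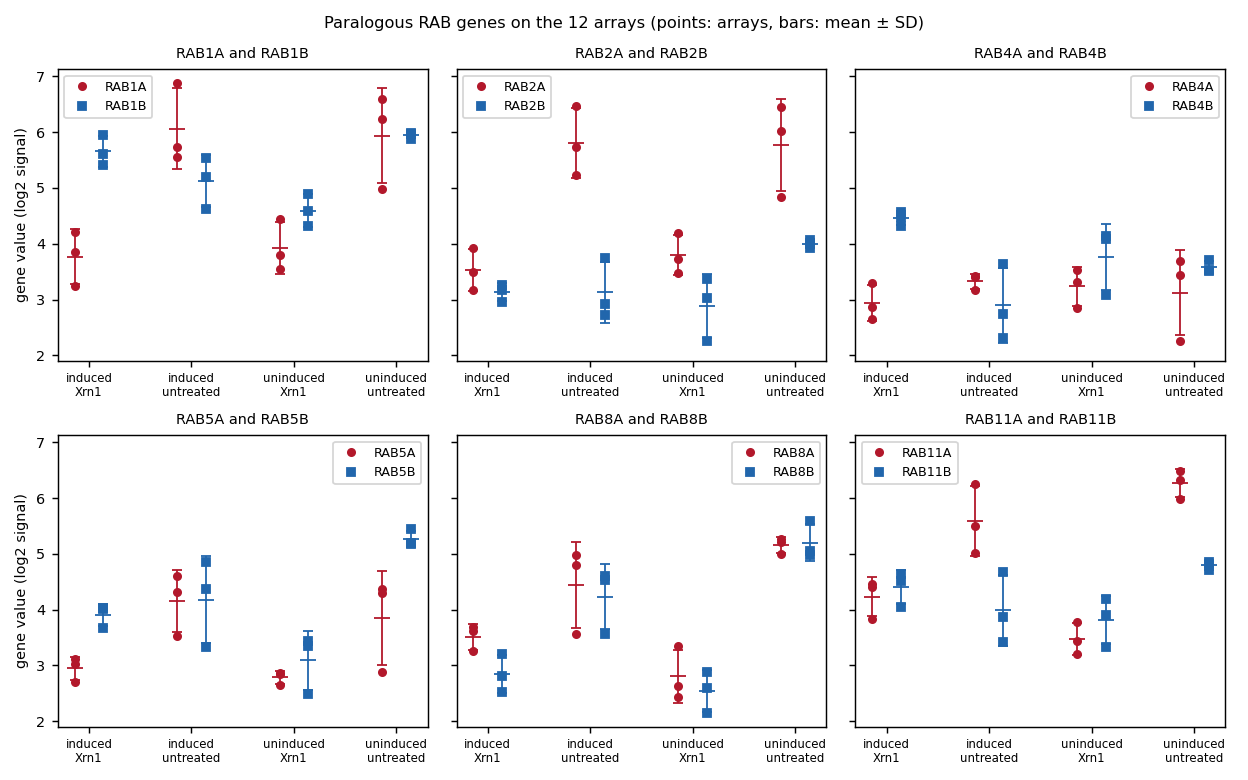
Log2 gene values of 6 pairs of closely related RAB genes on the 12 arrays, by group; points are arrays and bars show mean ± SD over 3 arrays. With Xrn1, RAB11A lies lower than without in both states, by more than RAB11B does, and RAB1A lies lower on the induced Xrn1 arrays while RAB1B does not; levels of different genes cannot be set against each other.

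Single probe sets show how far the probe sets of a gene shared its change. Averaged over both states, 199 of the 628 kept RAB probe sets passed as lower and 49 as higher, 39.5% in all, beside 23.1% of all 705699 kept probe sets and 34.1% of those with a single symbol. Of single-symbol probe sets, 25.8% were lower and 8.3% higher. RAB7A had 14 of 15 probe sets lower and all 15 negative, from -3.21 to -0.98. RAB1A had 9 of 12 lower and all 12 negative, from -3.71 to -0.85.

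Other genes mixed directions. RAB8A had 12 probe sets lower, down to -4.50, and 3 higher, up to 1.37. RAB6A had 4 lower and 3 higher, from -2.83 to 2.06, and its brightest probe set changed by 2.06. RAB14 had 9 of 11 lower and 1 higher, RAB18 13 of 17 lower, RAB21 10 of 11 lower and RAB10 12 of 15 lower, none of the last 3 with one higher. Among genes that rose in induced cells, RAB4B had all 7 probe sets positive, from 0.57 to 1.15, with 2 passing.

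Brighter RAB probe sets passed more often, in both directions. The share that was lower was 17% below a signal of 3, 34.1% from 3 to 4, 42% from 4 to 5 and 46.2% above 5. Single-symbol probe sets of all genes had 14.2%, 28.8%, 37.1% and 42.9% in the same bins. Both shares rose in step over the bins. Higher were 6 of 224, 13 of 173, 12 of 112 and 18 of 119 RAB probe sets, beside 2.18%, 8.31%, 14.9% and 19.3% of single-symbol ones.

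**Figure D4:**
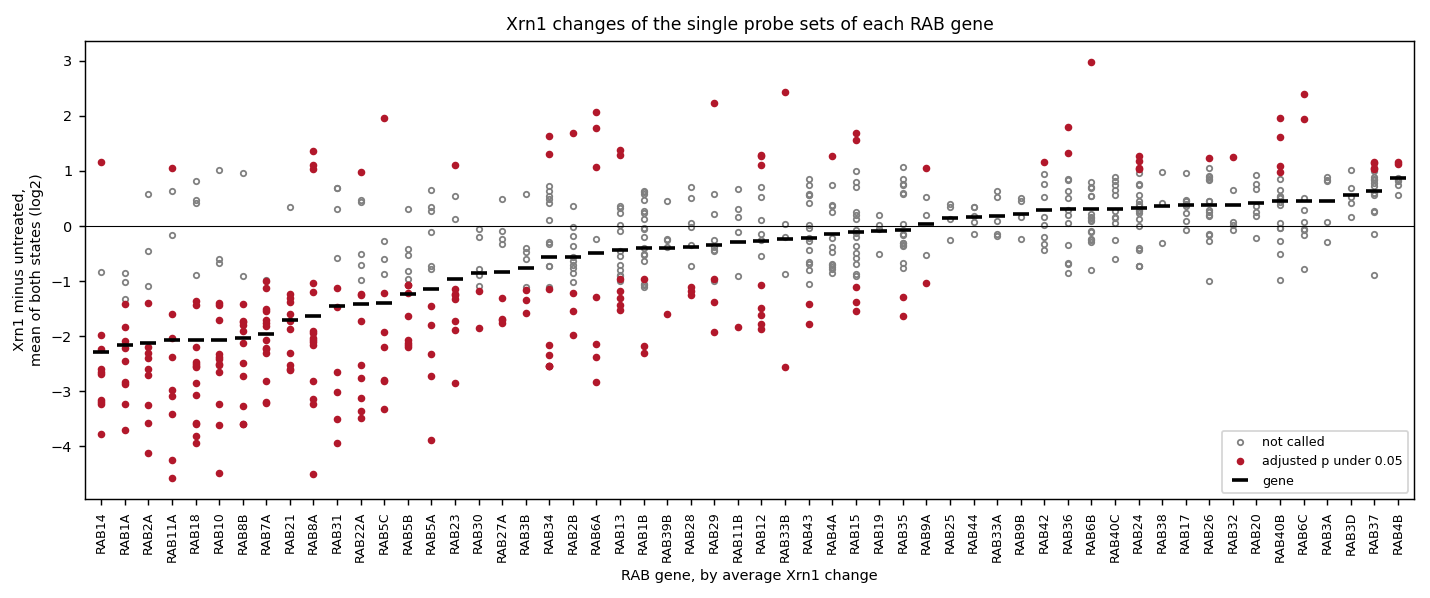
Xrn1 minus untreated change, averaged over both states (y axis, log2), of every kept probe set of the 56 RAB genes, ordered by gene change (black dash); red points passed with limma over all kept probe sets and open points did not. RAB7A and RAB1A have probe sets below 0 alone, while RAB8A and RAB6A hold red points on both sides.

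The start regions of RAB genes are rich in G and C. RefSeq's promoter table (GRCh38.p14) held 43 of the 56 tested genes by symbol. Their 250 bases before the start had a median GC content of 65.6%, against 58% over all 27305 promoters of the table. The GC box GGGCGG, known as a binding site of Sp1-type factors and searched on both strands, was present in 36 of 43 (83.7%), against 42.3% of all promoters. TATAAA was present in 2.33% against 11.1%, CCAAT in 25.6% against 33.0% and CACGTG in 11.6% against 6.49%. Among genes lower in both states 11 of 11 in the table held GGGCGG, and among the other tested RABs 25 of 32. These are letters in a window and say nothing of which factor is bound.

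The 100 bases before the start of 3 genes that fell with Xrn1 in both states and of RAB4B, which rose in induced cells, in RefSeq's promoter table are shown to set the promoters of these groups side by side, 5' to 3' on the gene's strand. Capitals mark GGGCGG or CCAAT on either strand. They lie at chr3:128726083-128726182 (plus strand) for RAB7A, chr2:26033984-26034083 (plus strand) for RAB10, chr15:65869391-65869490 (plus strand) for RAB11A and chr19:40778147-40778246 (plus strand) for RAB4B. For RAB10 the start in the promoter table lies 799 bases inside the gene's span in RefSeq's gene table, which begins at 26033285, while for the other 3 genes, and for 39 of the 43 in all, both tables give the same start. A GC box stands in each of the 4 windows, with 3 in that of RAB4B and 2 in that of RAB11A.
RAB7A: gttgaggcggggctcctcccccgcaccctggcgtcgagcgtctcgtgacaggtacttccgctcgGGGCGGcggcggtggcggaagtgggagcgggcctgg
RAB10: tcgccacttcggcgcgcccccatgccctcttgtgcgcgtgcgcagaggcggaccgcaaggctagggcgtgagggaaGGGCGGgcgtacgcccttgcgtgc
RAB11A: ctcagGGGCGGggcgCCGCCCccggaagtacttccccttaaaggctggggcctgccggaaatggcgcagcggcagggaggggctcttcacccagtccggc
RAB4B: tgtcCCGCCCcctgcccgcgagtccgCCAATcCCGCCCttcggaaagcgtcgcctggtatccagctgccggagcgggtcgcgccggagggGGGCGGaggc

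Genes of the machinery that serves RAB proteins also passed the test. GDI2, a GDP dissociation inhibitor that extracts RABs from membranes, changed by -2.22 in induced and by -3.02 in uninduced cells (limma adjusted p = 7.72e-09 and 8.05e-17), and CHML, a RAB escort protein, by -2.18 and -1.94. The transferase subunits went apart. RABGGTB fell in both states, by 1.35 in induced and by 1.05 in uninduced cells, while RABGGTA rose by 1.02 in induced cells and changed by -0.40, which did not pass, in uninduced cells. In this list of 6 tested genes 3 were lower in each state, and 2 were higher in induced cells. Of all genes, 31.8% were lower in uninduced cells, and in induced cells 17.8% were lower and 21.6% higher.

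Exchange factors were lower for 12 of 25 in uninduced cells, with a median of -0.78, and for 6 in induced cells, where 3 were higher. DENND4A changed by -2.54 and DENND5A by -2.20 in uninduced cells. GTPase activators were lower for 16 of 30 in uninduced cells, and in induced cells 7 were lower and 5 higher. TBC1D23, which was counted here in the activator list, fell in both states, by 2.46 in induced and by 2.15 in uninduced cells. Whether its protein is an active GTPase activator was not tested. Of 36 effectors, 17 were lower and 2 higher in uninduced cells, and 8 were lower and 5 higher in induced cells. Beside these counts, 31.8% of all genes were lower and 7.24% higher in uninduced cells, and 17.8% and 21.6% in induced cells. USO1, the tether that RAB1 recruits, fell by 2.16 in induced and by 2.22 in uninduced cells, RABEP1, the rabaptin that binds RAB5, by 0.92 and by 2.06, and ACAP2, which binds RAB35, by 1.81 and by 1.33. After cyclic loess, 11 exchange factors were lower and 5 higher in uninduced cells, 9 activators were lower and 0 higher, and 16 effectors were lower and 8 higher, beside 21.9% of all genes in each direction. In induced cells it was 11 lower and 3 higher, 11 and 5, and 14 and 5, beside 21.9% lower and 23.4% higher.

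Other small GTPase families also held genes that fell with Xrn1. Of 12 ARF, ARL and SAR genes, 8 were lower in each state. SAR1A changed by -1.67 in induced and -2.32 in uninduced cells, and ARF4 by -2.34 and -2.17. Of 20 RAS, RAP, RAL and RAN genes, 8 were lower in uninduced cells, and 6 were lower and 3 higher in induced cells, with RAP1B changed by -2.39 in induced and -3.12 in uninduced cells. Among all genes 31.8% were lower in uninduced cells, and 17.8% were lower and 21.6% higher in induced cells. Whether either of these families differed from the RAB genes was not tested.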

How the data were processed

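The deposited values are log2 probe set signals, which the authors obtained by RMA with the oligo software (per the submitters' processing notes). Software versions, array annotation and genome build: not given in the sources used here. RMA corrects background, quantile-normalises arrays and summarises probes. The deposited log2 values were not normalised again. Array medians ranged from 2.09 to 2.25, and 3 arrays per group limit the precision.

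Symbols came from the platform annotation, and outdated ones were updated through RefSeq synonyms. Probe sets shared with another gene were not used, among them 22 of RAB6A and RAB6C, 18 of ISY1 and RAB43, 15 of RAB40A and RAB40AL, and 2 of MIA and RAB4B. RAB1C, a pseudogene, was left out. Kept probe sets per tested RAB gene numbered 3 to 21, with a median of 11.

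Gene values were fitted with limma 3.58.1 in R 4.3.3 (lmFit, eBayes), with 1 mean for each of the 4 groups and all 12 arrays together, and Benjamini-Hochberg adjustment ran over 16883 genes or 705699 probe sets. The fit was tested on simulated data. Alternatives were the median of probe sets, no filter, a filter at the upper quartile (2.76), centring, cyclic loess, other priors, array weights, only the groups compared, blocks and leaving out arrays. The test of related pairs and the levels without the brightest probe set were added after the data had been seen.

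The members, gene lists and paired relatives were chosen with earlier results of these data known. Named genes are those with the 4 largest falls and rises for Xrn1 in each state, the 6 with the smallest p for the difference between states, the 4 brightest, the related pairs, and up to 4 of each regulator list by smallest p. The title of CM1X repeats replicate number 2, and its sample number was used instead.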

Additional observations from a re-analysis of the deposited data

Results flagged for a closer look

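The Xrn1 change differed between induced and uninduced cells, by the limma test of the difference itself, for 15 RAB genes. Of all genes 21.8% passed this test, 20.6% as higher and 1.23% as lower. In each of the 15 the induced change minus the uninduced one was positive on the log2 scale. Of these 15 calls, 0 were kept in all alternatives. RAB5B (1.91) and RAB5C (1.46) are early endosome RABs, and RAB31 (1.40) acts between the Golgi and endosomes. RAB4B (1.37) acts in fast recycling. RAB11A (1.43), RAB11B (1.40), RAB8A (1.42), RAB8B (1.28) and RAB15 (1.74) act in recycling and exocytosis. RAB1B (1.88) and RAB34 (1.62) were listed with the endoplasmic reticulum and Golgi. RAB3D (1.57) and RAB27A (1.37) act in regulated secretion, RAB9A (1.46) at late endosomes, and RAB39B (1.26) in neurons. RAB2A, RAB1A, RAB10 and RAB7A had differences of -0.31, -0.28, 0.13 and 0.14, none of which passed. Over all 56 genes 42 differences were positive with a median of 0.81, and the median over all genes was 0.70, or 0.23 after centring and 0.15 after cyclic loess. The median SD of a RAB gene within a group was 0.18 for induced Xrn1, 0.52 for induced untreated, 0.38 for uninduced Xrn1 and 0.32 for uninduced untreated arrays. Whether these spreads take part in the differences was not tested.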

How the results depend on the processing

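The number of RAB genes passing for Xrn1 was 27 in uninduced cells, beside 39.0% of all genes. Leaving out 1 array gave 21 to 27, beside 30.5% to 43.1%. The average gave 24 beside 44.0%, and 19 to 28 beside 35.1% to 51% when 1 array was left out. In induced cells it was 22 beside 39.3%, with 9 beside 8.84% under each gene's own spread. Leaving out 1 array there gave 10 to 27, beside 14.2% to 47.3%. For induction without Xrn1 it was 0, with 23 beside 28.1% under array weights. Leaving out 1 array gave 0 to 25 there, beside 0% to 41%. For induction with Xrn1 it was 0, with 17 beside 37.9% under array weights. It was 5 beside 6.12% when the compared groups alone were fitted. The difference between states gave 15 beside 21.8%. It gave 4 beside 8.68% for the median of probe sets, 5 beside 8.37% with the upper quartile filter and 5 beside 11% after centring. Cyclic loess gave 0 beside 2.51%, own spread 0 beside 0% and array weights 31 beside 51.1%. With CM sample numbers as a block it was 1 beside 0.859%, and without CM5 and CM5X 0 beside 0.00592%. Leaving out 1 array gave 0 to 30, beside 0.296% to 49.8%. With the replicate number as a block the counts were 27, 21, 21, 0, 0 and 13 in the order uninduced, induced, average, both inductions and difference. Shares of all genes in that order were 37.9%, 38%, 42.7%, 0.00592%, 0.0415% and 17.9%. With CM sample numbers as a block they were 23, 15 and 20 for the 3 Xrn1 comparisons, beside 33%, 31.1% and 36.6%. Deviations of same-numbered arrays correlated at -0.708 to 0.125 by CM number and -0.639 to 0.12 by replicate number. With 3 arrays a group, such correlations cannot tell whether same-numbered samples share RNA, and the labels do not say. Expressed genes numbered 37, 34 with the median of all genes as the level and 33 without the brightest probe sets. Among 2156 recomputed values of the 88 single-gene calls, 1749 kept direction and threshold, 405 lost the threshold and 2 reversed, both under cyclic loess: RAB6A in uninduced cells, to 0.17 (limma adjusted p = 0.596), and RAB34 in the average, to 0.27 (limma adjusted p = 0.249). Of the pairs, RAB8A minus RAB8B reversed to -0.75 with the median of probe sets. Calls kept in all alternatives were 15 of 27 in uninduced cells, 9 of 22 in induced cells, 18 of 24 for the average and 0 of 15 for the difference. The causes were not tested.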
